A study of Homo sapiens with 54 samples.

Results

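Simple keratins, villin, other microvillus proteins and surface adhesion proteins are found in intestinal epithelium. The 9 genes described here include the keratins KRT8, KRT18, KRT19 and KRT20 and the microvillus proteins VIL1 (villin), COBL (cordon-bleu) and EZR (ezrin). The others are the surface adhesion proteins CDH17 and EPCAM. All 9 were chosen by name, through the probe sets that the platform annotation gives to each symbol alone. The 9 genes had 13 probe sets, 5 of them for EZR and 1 for each other gene. Of 11963 genes with a probe set of their own, 8105 passed a filter on low signal, and 8 of the 9 members were among them. CDH17 did not pass, and neither did 1 EZR probe set.

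The RNA came from HT-29, a human colon adenocarcinoma cell line, on Affymetrix arrays. Every culture, the untreated ones included, had first been sensitized with interferon-gamma, so no culture without interferon-gamma is described. Doses are in ng/ml. The 9 treatments were TNF 100 plus EGF 100, TNF 100 plus insulin 500, TNF 100, TNF 5 plus EGF 1, TNF 5 plus insulin 5, TNF 5, EGF 100, insulin 500, and no added factor (untreated). Each was sampled at 4, 8 and 16 h in 2 biological replicates, which gave 54 arrays in 27 groups, and their number limits the precision. TNF is a cytokine that activates inflammatory and death signalling in these cells, EGF is a growth factor for epithelium, and insulin is a metabolic and survival hormone.

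Keratins 8, 18, 19 and 20 are intermediate filament proteins of single-layered epithelia. A type II keratin such as KRT8 pairs with a type I keratin such as KRT18, KRT19 or KRT20, and the filaments are anchored at desmosomes. Enterocytes carry a brush border of microvilli, each a bundle of actin filaments that villin helps to cross-link, that ezrin ties to the membrane, and to whose assembly the actin nucleator cordon-bleu contributes. HT-29 cells are known as a colon line that is largely undifferentiated under ordinary culture and can be driven towards enterocyte-like or goblet-like states.

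Values are MAS5 signals, the deposited linear intensities. Changes are read within a probe set only, since signals of different probe sets do not give relative amounts of RNA. The marker sums and the brightness rank of KRT18 below add or order signals across probe sets. They describe signal and do not measure amounts of RNA. A change is a difference of log2(signal + 12.5) between treatments, averaged over 4, 8 and 16 h unless a time is named, and ± is its standard error from limma (n = 6 arrays a treatment, or n = 2 at 1 time). A gene is called when the adjusted p of limma's F test over the 3 times, or of its test at 1 time, is under 0.05, with adjustment over all 13422 probe sets that passed. Only a called gene is said to have risen, fallen or changed. RNA was taken from whole cultures, so fewer cells of a type and less RNA per cell cannot be told apart.

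The marker genes of the line were checked first. Of 9 intestinal epithelial markers, 8 were on the array and 6 passed the filter, namely LGALS4, CDH1, CEACAM5, CEACAM6, GPA33 and ELF3. The intestinal transcription factors CDX1 and CDX2 did not pass, with highest signals of 48.3 and 23.4. Of the 4 leukocyte markers on the array, PTPRC and CD3D did not pass, with highest signals of 57.7 and 173. LYZ and CD14 passed, with highest signals of 9703 and 170. The epithelial identity sum ranged over 15862 to 18095 under TNF 100 and over 15357 to 22993 in untreated cells, so the ranges overlapped. The goblet and enteroendocrine sum, of which 9 of 10 genes were on the array and 6 passed, was 4096 to 7701 under TNF 100 (median 6781) and 7271 to 9198 in untreated cells (median 7985), most of it AGR2. Its part in the results below was not tested. The stratified sum, 8 of 12 on the array and 3 passed, was 1673 to 2607 under TNF 100 and 2134 to 3328 in untreated cells. The mesenchymal sum, 12 of 12 on the array and 6 passed, was 859 to 1658 under TNF 100 and 1059 to 1458 in untreated cells. The leukocyte sum, 4 of 6 on the array, 2 passed and nearly all LYZ, was 6028 to 8186 under TNF 100 and 5375 to 9100.2 in untreated cells. No marker on the array was at 0 in any array.

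Replicate 2 at 8 h stood apart in a measure of RNA quality. The log2 ratio of ACTB signal near the 3′ end to that near the 5′ end had a median of 0.32 over these 9 arrays and of −0.04 over the other 45. It was 1.19 in the TNF 100 array and 0.98 in the insulin 500 array of that set. At 16 h, where most changes below were found, the ratio was 0.11 to 0.25 under TNF 100 and 0.03 to 0.30 in untreated cells. The highest of the 18 arrays at 16 h was TNF 100 with insulin 500 replicate 1, at 0.63, and replicate 2 of that treatment was at 0.35.

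VIL1 fell under TNF, with the lowest levels at 16 h. Villin bundles and severs actin in the microvillus core. At 4 h its signal (probe set 205506_at) was 486 and 704 under TNF 100 and 718 and 720.1 in untreated cells. At 8 h it was 409 and 339 under TNF 100 and 686 and 587 in untreated cells, and at 16 h it was 113 and 178 under TNF 100 and 640.3 and 575 in untreated cells. The TNF 100 arrays were lower at each time, and the pairs did not overlap. The mean change was −1.01 ± 0.18 (adjusted p = 4.25e-05, lower in 6 of 6 arrays), and it was −0.29, −0.75 and −2.00 at 4, 8 and 16 h. At 16 h alone the level was 4.0 times lower (adjusted p = 1.56e-05), while at 4 and 8 h alone the adjusted p was 0.864 and 0.192.

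**Figure D1:**
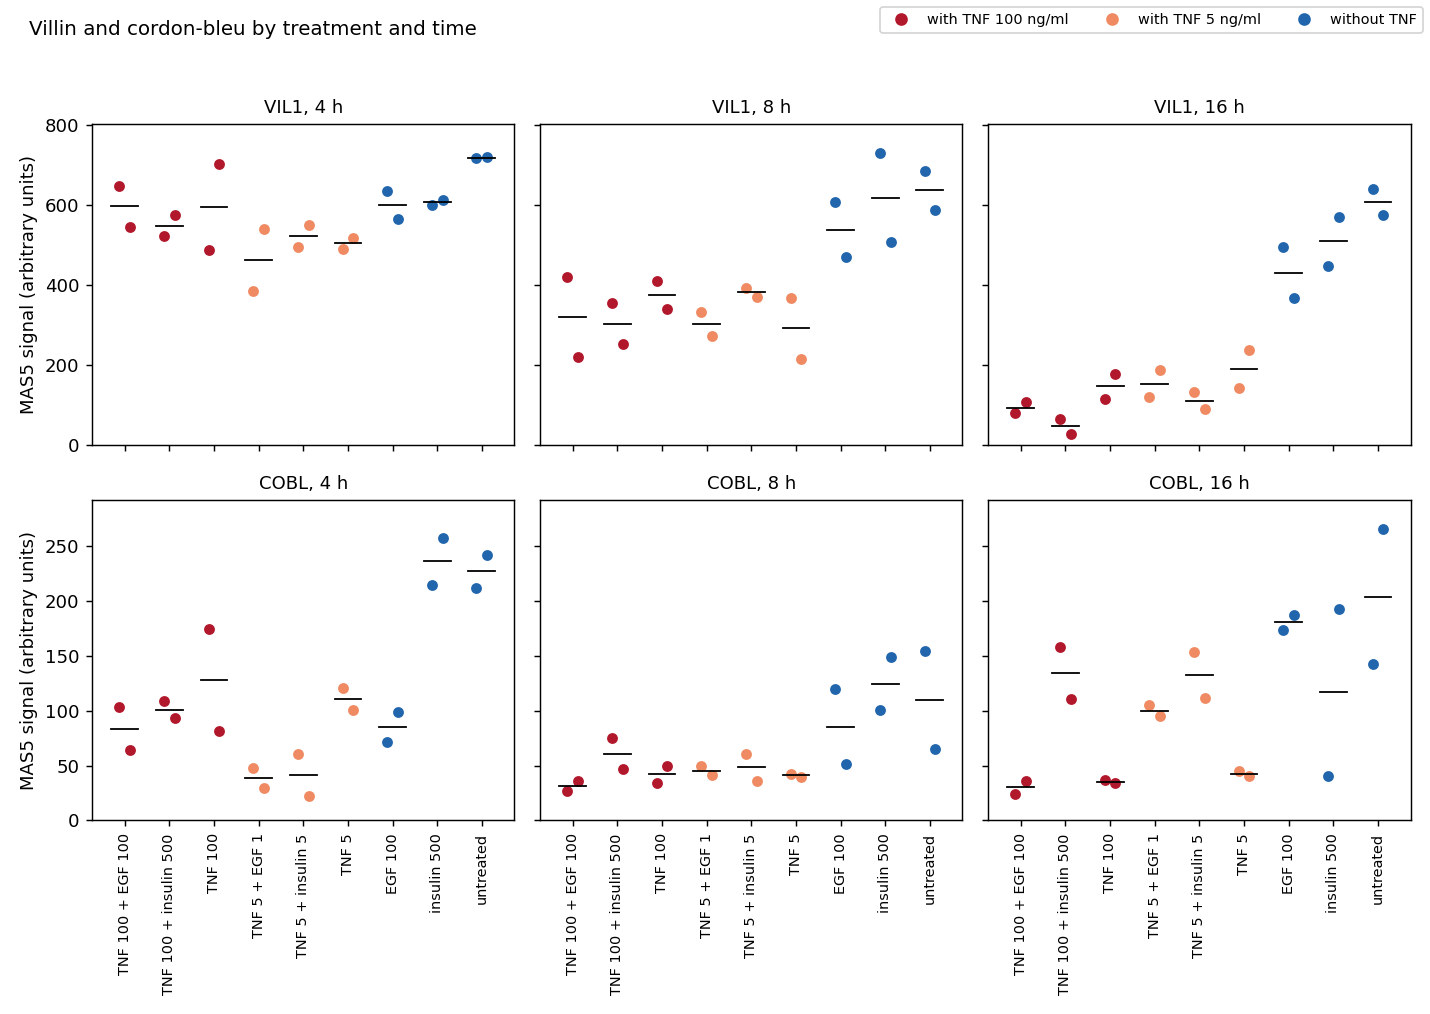
MAS5 signal (arbitrary units, linear axis from 0) of VIL1 (upper row) and COBL (lower row) at 4, 8 and 16 h. Each point is 1 array, the short bar is the mean of the 2 replicates, and colour gives the TNF dose. At 16 h the 12 arrays with TNF had VIL1 signals of 26.0 to 236 and the 6 without TNF 368 to 640.3.

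At 8 and 16 h every array with TNF, at either dose and with or without EGF or insulin, had less VIL1 signal than every array without it. At 4 h the 12 arrays with TNF had a lowest, median and highest VIL1 signal of 386, 531 and 704, and the 6 without TNF had 565, 624 and 720.1. At 8 h they were 214, 347 and 419.6 with TNF and 471, 597 and 729.9 without it. At 16 h they were 26.0, 116 and 236 with TNF and 368, 533 and 640.3 without it. The 2 sets overlapped at 4 h, where 9 of the 12 TNF arrays lay below the lowest array without TNF, and did not overlap at 8 or 16 h. VIL1 was the member with such separation, 1 of 8 at 8 h and 1 of 8 at 16 h, and no member had it at 4 h. Over the 8105 genes the share with no overlap was 3.11% at the first time, 5.22% at the next and 9.59% at 16 h.

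The order of VIL1 levels at 16 h placed the mixture of TNF 100 with insulin 500 lowest, at 64.3 and 26.0. TNF 100 with EGF 100 had 78.4 and 106, and TNF 5 with insulin 5 had 131 and 89.5. TNF 100 had 113 and 178, TNF 5 with EGF 1 had 118 and 187, and TNF 5 had 141 and 236. Neighbouring TNF treatments in this order overlapped, except that the lowest treatment lay below the next. EGF 100, with 494 and 368, insulin 500, with 447 and 571, and untreated cells followed, and each overlapped its neighbour except that insulin 500 lay just below untreated cells. Between TNF 5 and EGF 100 no array lay between 236 and 368.

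COBL was also lower under TNF 100 than in untreated cells, but its signals were weak and its replicates were further apart. It was not called for TNF 100 when insulin 500 was present. Cordon-bleu nucleates actin filaments. The signal (213050_at) under TNF 100 was 174 and 81.4 at 4 h, 34.5 and 49.5 at 8 h, and 37.2 and 33.7 at 16 h. In untreated cells it was 212 and 242 at 4 h, 154 and 65.1 at 8 h, and 143 and 265 at 16 h. The pairs did not overlap at any time, although over all treatments the arrays with and without TNF overlapped at all 3 times. The change was −1.35 ± 0.27 (adjusted p = 0.00164), and at 16 h it was −2.11 (adjusted p = 0.00172). COBL passed the filter, a group mean of at least 139, through 4 of the 9 groups without TNF and through 0 of the 18 with TNF, where the highest mean was 132. Such a gene enters the tests because it is high without TNF, so its calls as lower under TNF are not independent of the filter. With no filter on low signal, the adjusted p was 0.00255 over the times and 0.00267 at 16 h. Without untreated replicate 2 at 16 h, the adjusted p at 16 h was 0.0594.

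At the lower TNF dose VIL1 and COBL also fell. TNF 5 against untreated cells called 2 members, VIL1 and COBL, of the 8 tested, where 8.02% of all genes were called. VIL1 changed by −1.10 ± 0.18 (adjusted p = 1.54e-04) and COBL by −1.32 ± 0.27 (adjusted p = 0.00575, and 0.0605 without untreated replicate 2 at 16 h). With no filter the adjusted p for COBL was 0.00892, and under a stricter filter it was not tested. COBL passed the filter only through groups without TNF, so its call and its place in this count are not independent of the filter. With the replicate block within each time KRT19 was called as well (−0.23, adjusted p = 0.0438). This comparison uses the same untreated arrays as that of TNF 100. TNF 100 against TNF 5 called none of the 8 by limma, with 1 (KRT20) at an unadjusted p under 0.05, and 1.54% of all genes were called. VIL1 differed by 0.09 between the doses, with a 95% interval of −0.28 to 0.46.

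TNF 100 against untreated cells called 4 members, KRT19, KRT20, VIL1 and COBL, where 18.6% of all genes were called. The median change was −0.10 over the 8 members that passed the filter and −0.09 over all 8105 genes. At the single times 0 members were called at 4 h (1 at an unadjusted p under 0.05), where 4.98% of genes were called, and 0 at 8 h (3 unadjusted), where 6.51% were called. At 16 h 4 were called, where 14.1% of genes were, and the members' median was −0.42 against −0.11 for all genes. With each array centred on its median 2 were called at 16 h. COBL passed the filter only through groups without TNF, so its place in the count and the median is not independent of the filter.

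**Figure D2:**
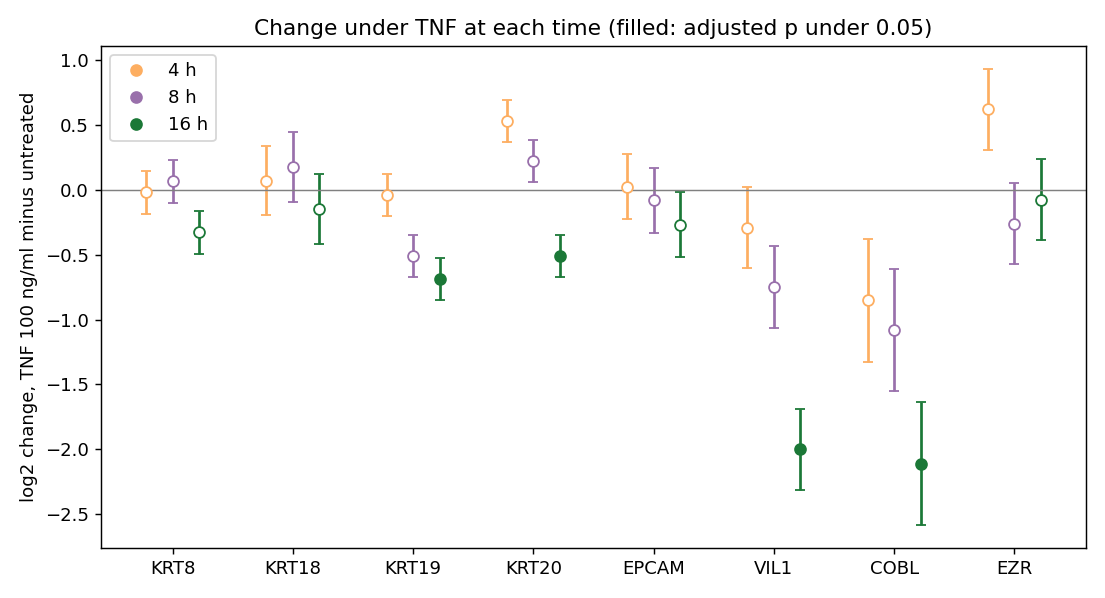
Log2 change in TNF 100 minus untreated cells for the 8 tested members at 4, 8 and 16 h (colours). Points are the limma estimate, bars its standard error, and filled points have an adjusted p under 0.05. KRT19, KRT20, VIL1 and COBL were called at 16 h, and the KRT20 point lies above 0 at 4 h and below it at 16 h.

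The keratins did not move as one. KRT20 is a keratin of differentiated gastrointestinal epithelium, and its response to TNF 100 depended on the time. At 4 h its signal (213953_at) was 6608 and 6413 under TNF 100 and 4565 and 4424 in untreated cells. At 16 h it was 5231 and 4846 under TNF 100 and 7290.3 and 7037 in untreated cells. The TNF arrays were all higher at 4 h and all lower at 16 h, with no overlap at either time, and at 8 h (6212 and 5784 under TNF 100, 4629 and 5691 in untreated cells) they were higher by a narrow margin. The log2 changes were 0.53, 0.22 and −0.51 from the first time to the last. The test of the 3 times together passed (adjusted p = 0.00578), while the mean of 0.08 ± 0.09 has no clear direction. The test at 4 h gave an adjusted p of 0.05 and was not called. That at 16 h gave 0.0314, or 0.108 with each array centred on its median. The 16 h call was lost without any 1 of its 4 arrays, with an adjusted p of 0.0834 or 0.202 without TNF 100 replicate 1 or 2, and of 0.17 or 0.0968 without untreated replicate 1 or 2.

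The change of the TNF effect over time was tested directly. It called 1 member of 8, KRT20, where 2.97% of all genes were called. Its TNF effect at 16 h was lower than that at 4 h by a log2 difference of −1.04 ± 0.23 (adjusted p = 0.0153). Without untreated replicate 1 or 2, or TNF 100 replicate 2, at 16 h, the adjusted p was 0.0857, 0.0541 and 0.1 in turn. VIL1 had the larger difference, −1.71 ± 0.45, with an adjusted p of 0.0568, and of 0.00992 with the replicate block within each time.

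The base of this contrast also moved. In untreated cells, 16 h against 4 h called 1 member, KRT20, which rose by 0.67 ± 0.16 (adjusted p = 0.0112), where 11% of all genes were called. The untreated KRT20 signals named above were 7290.3 and 7037 at 16 h, above both arrays of 4 h. Without untreated replicate 1 or 2 at 16 h the adjusted p was 0.128 and 0.0838. Under TNF 100, 16 h against 4 h called 3 members, VIL1, COBL and EZR, where 24.5% of all genes were called. VIL1 changed by −1.95 (adjusted p = 4.84e-05) and COBL by −1.47 (adjusted p = 0.0351). Without TNF 100 replicate 1 at 4 h the COBL difference was −0.97 with an adjusted p of 0.448, and its call was also lost without the filter (0.0551), without TNF 100 replicate 1 at 8 h (0.0515) or either replicate at 16 h (0.0756 and 0.087). KRT20 was not called there.

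The first 250 bases before the start of KRT20 are shown because this keratin had the change of direction. The RefSeq promoter table (GRCh38.p14) matched 3 of the 9 members, KRT8, KRT20 and EZR. The KRT20 stretch, at chr17:40885243-40885492 on the minus strand, has a GC content of 41.2%. Capitals mark its match to the HNF1 motif, read on the opposite strand, which starts 138 bases before the start.
KRT20: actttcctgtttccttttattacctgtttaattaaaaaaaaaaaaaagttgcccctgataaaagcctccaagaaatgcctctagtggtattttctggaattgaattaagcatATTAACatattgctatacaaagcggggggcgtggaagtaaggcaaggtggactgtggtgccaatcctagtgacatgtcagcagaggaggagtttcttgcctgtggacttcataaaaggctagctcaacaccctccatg
A set of 6 motifs was searched on both strands by their letters, NF-kB (GGGNNTTTC), the interferon-stimulated response element (GAAANNGAA), CDX (CAATAAA), HNF4 (CAAAGTCCA), HNF1 (GTTAAT) and the TATA box (TATAAA). The letters of these motifs, in that order, are in 4.16%, 6.88%, 3.66%, 0.325%, 6.23% and 10.7% of 35116 promoters of the same length. KRT20 held the HNF1 letters alone, and KRT8 and EZR held none of the motifs. A match is a description of letters in this window.

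KRT19, a type I keratin that pairs with KRT8, was lower under TNF 100 at the later times. Its signal (201650_at) at 4 h was 4716 and 6312 under TNF 100 and 5862 and 5354 in untreated cells, which overlapped. At 8 h it was 5025 and 4169 under TNF 100 and 6996 and 6070 in untreated cells, and at 16 h 4955 and 4526 under TNF 100 and 8525 and 6824 in untreated cells. The TNF arrays were lower at 8 and 16 h without overlap. The change was −0.41 ± 0.09 (adjusted p = 0.00158, lower in 5 of 6 pairs of arrays with the same replicate number). The adjusted p was 0.0714 with each array centred on its median and 0.0646 with only these 2 treatments in the fit. At 16 h it was −0.69 (adjusted p = 0.00257, and 0.0745 with each array centred on its median). The change at 16 h was −0.53 without untreated replicate 1. At 8 h it was −0.51 with an adjusted p of 0.0539, and of 0.015 with the replicate number as a block, a number that paired the arrays at that time.

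KRT8 and KRT18, the pair that forms the first keratin filaments of simple epithelia, gave no call in this contrast by the main fit. KRT8 (209008_x_at) ranged over 10584 to 14911 under TNF 100 and 9875 to 16585 in untreated cells, and its change was −0.09 with a 95% interval of −0.29 to 0.10. KRT18 (201596_x_at) ranged over 20996 to 32746 under TNF 100 and 20236 to 32179 in untreated cells, and its change was 0.03 with an interval of −0.28 to 0.35. KRT8 overlapped at 4 and 8 h and was lower under TNF 100 at 16 h (12082 and 12660.2, against 16585 and 14515 in untreated cells), where the change was −0.33 (adjusted p = 0.235). KRT8 was called at 16 h by limma under 1 of 11 other settings, quantile normalization (−0.37, adjusted p = 0.028). Over all treatments at 16 h, 9 of the 12 TNF arrays had less KRT8 signal than the lowest array without TNF. KRT18 overlapped at every time. Both probe sets are of a kind that may also match related transcripts, and KRT18 was among the brightest on the array, with 0.054% of probe sets brighter.

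**Figure D3:**
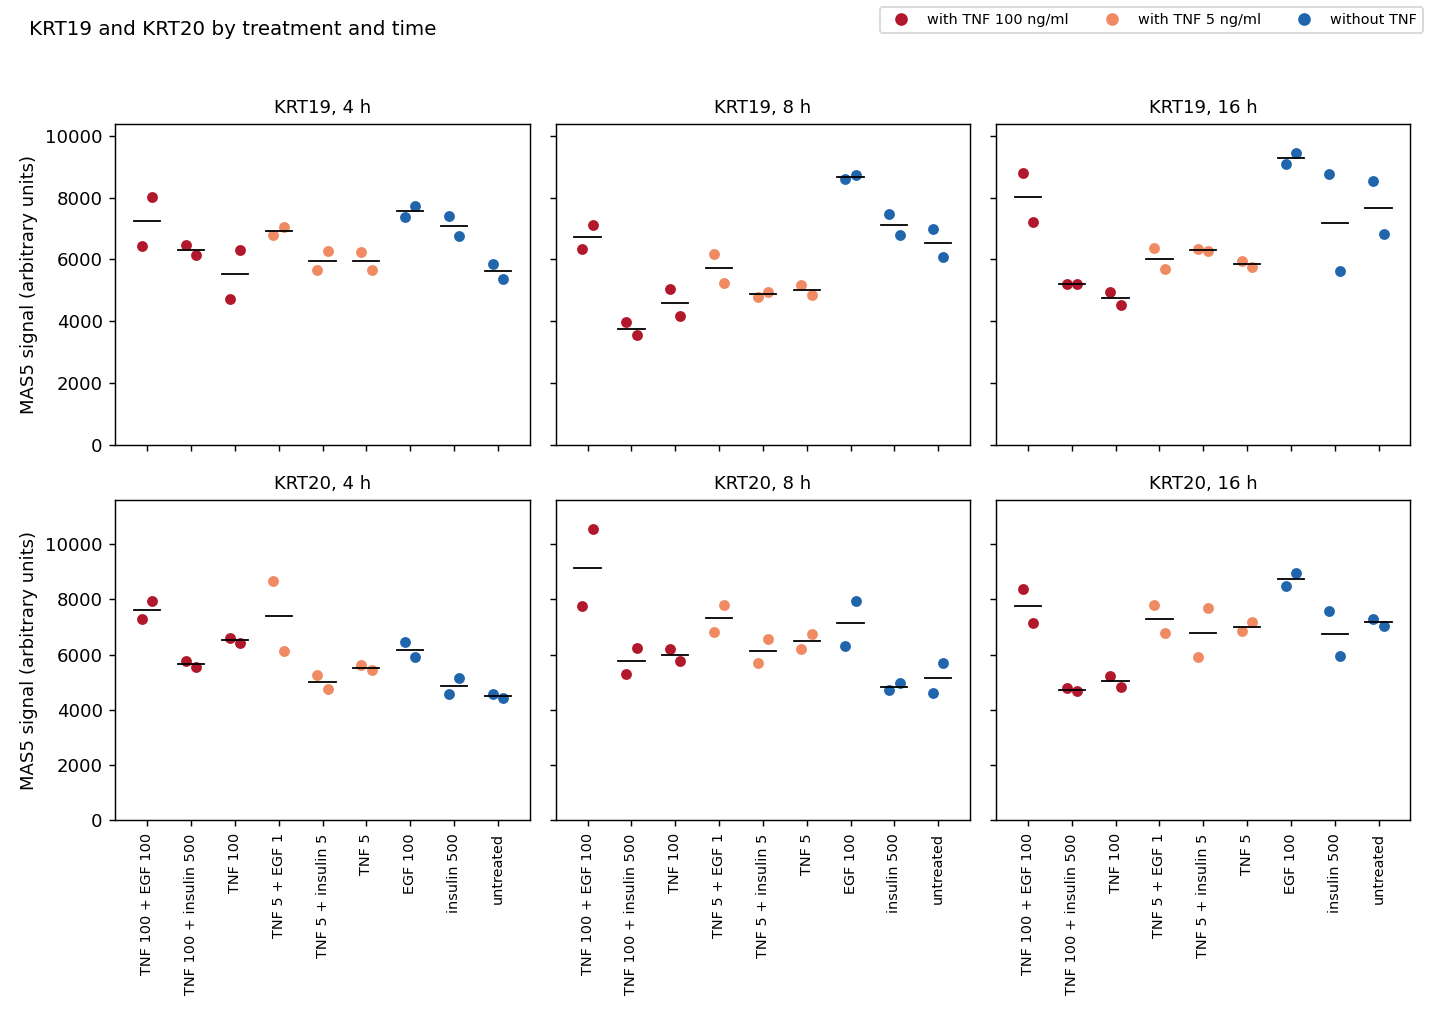
MAS5 signal (arbitrary units, linear axis from 0) of KRT19 (upper row) and KRT20 (lower row) at 4, 8 and 16 h by treatment. Points are arrays, bars are means of 2 replicates, and colour gives the TNF dose. Under TNF 100 with EGF 100 both keratins lay above TNF 100 in all 6 pairs of arrays.

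EGF raised KRT19 and KRT20 in the presence of TNF. Under TNF 100 with EGF 100, KRT19 was 6432 and 8030.0 at 4 h, 6344 and 7113 at 8 h, and 8789 and 7219 at 16 h, against the TNF 100 values given above. KRT20 was 7300 and 7927 at 4 h, 7749 and 10532 at 8 h, and 8368 and 7150 at 16 h under the mixture. Both were higher than under TNF 100 at every time, without overlap. TNF 100 with EGF 100 against TNF 100 called 2 of 8 members, where 0.296% of all genes were called. KRT19 rose by 0.57 ± 0.09 (adjusted p = 0.00893) and KRT20 by 0.48 ± 0.09 (adjusted p = 0.0383). These calls were lost without the 8 h arrays of replicate 2 (adjusted p = 0.17 and 0.431) and with only the 2 treatments in the fit (0.741 and 0.822). KRT20 was also lost in 10 of the 12 fits that left out 1 array. KRT19 was lost without TNF 100 plus EGF 100 replicate 1 (0.0639) or TNF 100 replicate 2 (0.0653) at 16 h, and with median centring (0.227).

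EGF 100 without TNF gave differences of the same sign, with calls only under some alternative settings. KRT19 was 7379 and 7737 at 4 h, 8615 and 8738 at 8 h, and 9099 and 9433 at 16 h under EGF 100, above the untreated values given earlier at every time. KRT20 was 6445 and 5897 at 4 h, 6328 and 7950 at 8 h, and 8482 and 8969 at 16 h under EGF 100, also above untreated cells without overlap. The log2 difference was 0.37 ± 0.09 for KRT19 (adjusted p = 0.208) and 0.40 ± 0.09 for KRT20 (adjusted p = 0.135), each higher in 6 of 6 arrays. With the replicate number as a block within each time, limma called KRT19 (adjusted p = 0.0442), KRT20 (0.0193) and EZR (0.0326). The numbers paired the arrays most clearly at 8 h and more weakly at 4 and 16 h. KRT20 was also called with quantile normalization (0.0115) and median centring (0.0484). EGF 100 against untreated cells called 0 of 8 members by limma, with 3 at an unadjusted p under 0.05, and 0.642% of all genes were called. The interaction of TNF 100 with EGF 100 called 0 of 8 (0 unadjusted), where 0.037% of genes were called, so a different response to EGF with and without TNF was not shown.

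**Figure D4:**
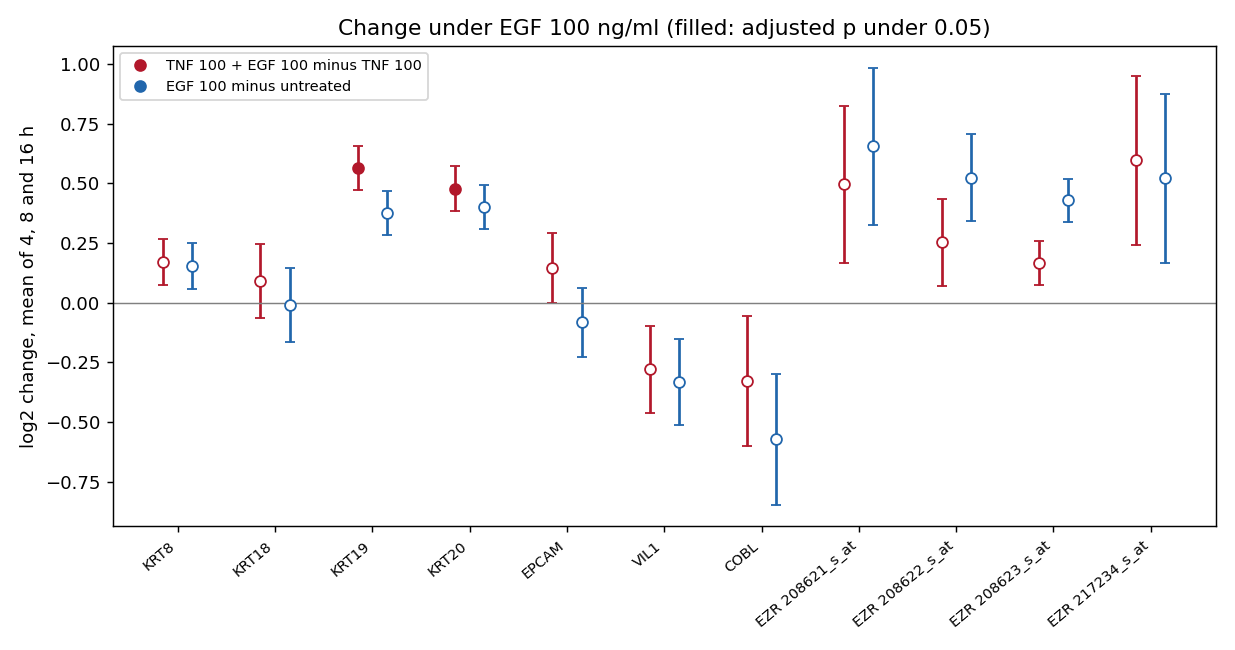
Log2 change, averaged over 4, 8 and 16 h, under EGF 100 with TNF 100 present (red) and absent (blue), for 7 members and 4 EZR probe sets. Points are the limma estimate, bars its standard error, and filled points have an adjusted p under 0.05. KRT19 and KRT20 are filled for the contrast with TNF and open without it.

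EZR, which ties the actin core to the microvillus membrane, depended on the probe set. In the brightest one (208622_s_at) the signal under TNF 100 was 2477 and 3491 at 4 h, 1943 and 1081 at 8 h, and 2137 and 2037 at 16 h. In untreated cells it was 2493 and 1460 at 4 h, 2239 and 1350 at 8 h, and 2212 and 2185 at 16 h. The groups overlapped at 4 and 8 h, the TNF arrays lay slightly lower at 16 h, and the difference was 0.09 ± 0.18 (adjusted p = 0.496, and 0.0494 with the replicate block within each time). Replicate 2 was the lower array at 8 h in all 9 treatments, the set with the higher ACTB ratio. In 208621_s_at and 217234_s_at the TNF 100 array of that set was at 328 and 324, its lowest in each probe set. The 4 probe sets correlated at 0.579 to 0.954 over the 27 group means.

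EZR changed by −0.49 at 16 h against 4 h under TNF 100 by its main probe set, and by −1.01 at 8 h against 4 h (adjusted p = 0.0476 over both). By the probe set 208623_s_at the change at 16 h was 0.07 with an adjusted p of 0.276. Without TNF 100 replicate 2 at 8 h the main probe set had an adjusted p of 0.388, and the call was lost without TNF 100 replicate 2 at 4 h (0.276) and without either replicate at 16 h (0.0724 and 0.071) as well. EGF 100 against untreated cells gave 0.52 for the main probe set (adjusted p = 0.855) and 0.43 ± 0.09 for 208623_s_at (adjusted p = 0.0674). In that probe set EGF 100 had 1930 and 2287 at 4 h, 2115 and 2173 at 8 h, and 2283 and 2691 at 16 h. Untreated cells had 1407 and 1456 at 4 h, 1651 and 1617 at 8 h, and 1929 and 1969 at 16 h. The EGF arrays were higher without overlap at each time.

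Adding TNF to growth factor gave further contrasts. TNF 100 with EGF 100 against EGF 100 called 2 members, VIL1 and COBL, where 16.9% of genes were called. VIL1 changed by −0.96 ± 0.18 (adjusted p = 3.01e-05) and COBL by −1.10 ± 0.27 (adjusted p = 0.00269, and 0.00421 with no filter). The COBL call, and so the count of 2, is again not independent of the filter. EZR was called there by 208623_s_at (0.42, −0.49 and −0.19 at 4, 8 and 16 h, adjusted p = 0.0191) and not by its main probe set (adjusted p = 0.571). TNF 100 with insulin 500 against insulin 500 called 3, KRT19, KRT20 and VIL1, where 22.8% were called. COBL was not called there (adjusted p = 0.103). Its changes were −1.13, −0.91 and 0.47 at 4, 8 and 16 h, so the sign at 16 h was opposite to that without insulin. VIL1 changed by −1.46 ± 0.18 (adjusted p = 3.79e-09) and by −3.25 at 16 h, and KRT19 by −0.51 ± 0.09 (adjusted p = 8.60e-05). Replicate 1 of the mixture had the highest ACTB ratio at 16 h, 0.63, and a VIL1 signal of 64.3. Replicate 2 had a ratio of 0.35 and the lower VIL1 signal, 26.0. The part of RNA quality in the VIL1 change was not tested. KRT20 had changes of 0.22, 0.25 and −0.51 at the 3 times (adjusted p = 0.0393), a mean of −0.01, and no single direction. Its call or the sign of its mean was lost in 10 of the 12 fits that left out 1 array.

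Insulin alone moved no member past the test. Insulin 500 against untreated cells called 0 of 8 (0 unadjusted) where 0.271% of all genes were called. TNF 100 with insulin 500 against TNF 100 called 0 (2 unadjusted, VIL1 and COBL) where 0.617% were called. VIL1 was 64.3 and 26.0 at 16 h in that mixture and 113 and 178 under TNF 100, and the difference was −0.64 ± 0.18 (adjusted p = 0.0591, and 0.00599 with the replicate block within each time). COBL was 158 and 110.3 at 16 h in the mixture, above 37.2 and 33.7 under TNF 100, and its mean change was 0.59 ± 0.27 (adjusted p = 0.371). The interaction of TNF 100 with insulin 500 called 0 of 8 (1 unadjusted, COBL, adjusted p = 0.494), where 0.0123% of genes were called.

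At 16 h COBL was higher in both low-dose mixtures than under TNF 5. The high-dose mixture of TNF with insulin had the same sign against high-dose TNF (1.6 at 16 h). The high-dose mixture of TNF with EGF had the opposite sign (−0.19 at 16 h). These signals are weak, since COBL reached the filter in 0 of the 18 groups with TNF. COBL was 105 and 95.3 under TNF 5 with EGF 1 and 154 and 111 under TNF 5 with insulin 5, against 45.2 and 40.1 under TNF 5. At 4 h the order was the other way, with 47.8 and 29.6 under TNF 5 with EGF 1, and 60.9 and 22.6 under TNF 5 with insulin 5, against 120.3 and 100.1 under TNF 5. Neither comparison called a member or any gene by limma (0% in each). At an unadjusted p under 0.05 there were 358 genes for EGF 1 and 170 for insulin 5, and COBL was the 1 member in each.

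EPCAM and CDH17 are surface adhesion proteins. EPCAM, a homophilic adhesion molecule of epithelium, had a signal (201839_s_at) of 6217 to 8193 under TNF 100 and 5889 to 10468 in untreated cells, with overlap at 4 and 8 h and lower TNF arrays at 16 h (6217 and 7361, against 7480 and 8868 in untreated cells). Its change was −0.11 (adjusted p = 0.913, 95% interval −0.40 to 0.19). CDH17, the liver-intestine cadherin, was low everywhere, with a lowest, median and highest signal of 9.67, 27.7 and 119 over the 54 arrays. It was not tested.

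**Figure D5:**
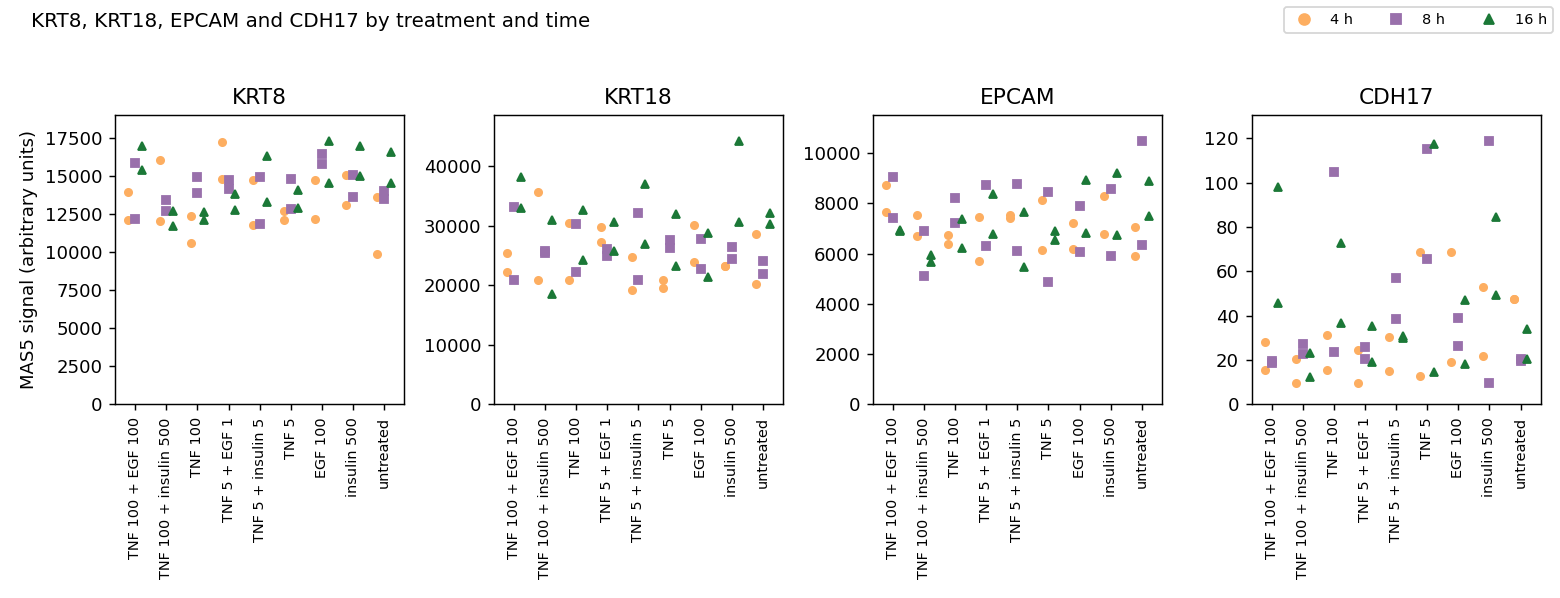
MAS5 signal (arbitrary units, linear axis from 0) of KRT8, KRT18, EPCAM and CDH17 by treatment, with a marker for each time. Each point is 1 array. The CDH17 signals lie at or below 119.

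The relation among the members is given as a description over the 27 group means, which share arrays and scaling. KRT19 and KRT20 correlated at 0.425, KRT8 and KRT18 at 0.556, and VIL1 and COBL at 0.295. The genes most like VIL1 were CTSH (0.966), CENPM (0.955) and CENPU (0.954). Those most like KRT18 were GAPDH (0.955), RPL41 (0.955) and ACTB (0.951), which are very abundant transcripts. The gene most like KRT19 was MALL (0.805), and for KRT20 it was PRSS3 (0.748). COBL came closest to GRB14 (0.789), EZR to PPP2CB (0.782), KRT8 to EIF6 (0.676) and EPCAM to DCP2 (0.645).

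The genes around the members came from named lists, and each count below under TNF 100 against untreated cells stands beside the 18.6% of all genes called there. Of 5 other simple keratins, 2 were tested under TNF 100 against untreated cells and 1 rose, KRT7 by 0.81 ± 0.19 (adjusted p = 0.00441), a keratin of ductal and glandular epithelium. Of 12 desmosome genes, 10 were tested, with 1 higher and 1 lower. The plakin PPL fell by 0.64 on the log2 scale (adjusted p = 7.63e-04). The desmosomal plakin DSP was called with a mean of 0.21, which was −0.12, −0.29 and 1.02 at the 3 times (adjusted p = 0.00525). The list's median was 0.05, against −0.09 for all genes.

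Of 40 genes of the microvillus core and brush border scaffold other than the members, 29 were tested, and 4 were higher and 4 lower. The actin bundler PLS1 changed by −0.43, and by −1.01 at 16 h (adjusted p = 1.62e-04 there). The scaffold NHERF1 changed by −0.49 (adjusted p = 0.023) and the actin regulator EPS8L2 by −0.52 (adjusted p = 0.0178). CAB39, a partner of the kinase STK11, rose by 0.64 (adjusted p = 6.74e-04). The 8 called of 29 tested are 27.6%, beside 18.6% of all genes, and the list's median was −0.05, beside −0.09 for all genes.

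Of 31 brush border hydrolases and transporters, 11 were tested, and 0 were higher and 2 lower, a share of 18.2% beside 18.6% of all genes. The list's median was 0.03, against −0.09 for all genes. The chloride channel CFTR had a log2 change of −1.07, and of −1.95 at 16 h (adjusted p = 3.95e-07 over the times). The exporter ABCG2 had a change of −0.99, and of −1.78 at 16 h (adjusted p = 2.74e-09). Of 28 adhesion genes 20 were tested, and 3 were higher and 4 lower, a share of 35% beside 18.6% of all genes. The list's median was 0.04, against −0.09 for all genes. The tetraspanin TSPAN8 changed by −0.54 (adjusted p = 8.19e-06), the tight junction protein TJP3 by −0.51 (adjusted p = 0.0103), and CLDN4 rose by 0.51 (adjusted p = 0.00508). EPCAM, whose partners these include, was not called.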

How the data were processed

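RNA from 54 cultures of HT-29 cells was measured on Affymetrix arrays. The deposited values are intensities, linear MAS5 signals per the submitters' processing notes. The deposited scaling was kept, since the trimmed mean (2% off each tail) came to 500.2 on all arrays. The array medians still ranged from 111 to 168. Of 22283 probe sets, 68 controls were left out, and 19065 of the rest carried a single symbol in the platform annotation. A pseudocount of 12.5, the 10th percentile of signal, was added before log2. The filter asked for a group mean at or above a signal of 139 in any group and left 13422 probe sets. A gene was represented by its probe set of highest mean.

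One limma fit (limma 3.58.1, R 4.3.3) covered the 27 groups, with an intensity trend, 27 residual degrees of freedom and Benjamini-Hochberg adjustment. It was tested on simulated data. Replicate numbers were not a block in this fit, the 8 h arrays included. Residuals of same-numbered 8 h arrays had a median correlation of 0.428, with 36 of 36 pairs over 0.1. The median was 0.2 for the 4 h arrays (27 of 36 pairs over 0.1) and 0.205 for the 16 h arrays (31 of 36). Weaker pairing of the 4 h and 16 h arrays is therefore not excluded. Calls that were missing without a block can depend on this choice, and the fit with a replicate block within each time is given as an alternative.

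Named genes are the 9 members, the called list genes with the largest change (up to 4 for TNF 100 against untreated cells, up to 2 elsewhere), and the genes most correlated with a member. The members and lists were chosen with earlier results of these data known. The alternatives tried were other pseudocounts, filters, scalings, replicate blocks, variance settings, probe sets and sets of arrays.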

Additional observations from a re-analysis of the deposited data

Results flagged for a closer look

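The TNF effect on KRT20 differed between times. The log2 change of TNF 100 against untreated cells was lower at 16 h than at 4 h by −1.04 on the log2 scale (adjusted p = 0.0153 by limma). TNF 100 arrays lay above untreated arrays at 4 h and below them at 16 h. With only these 2 treatments in the fit the adjusted p was 0.091. At TNF 5 the changes were 0.298, 0.335 and −0.0305 at 4, 8 and 16 h (adjusted p = 0.359 by limma). Over all treatments KRT20 arrays with and without TNF overlapped at each time.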

How the results depend on the processing

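VIL1 kept its call for TNF 100 and for TNF 5 against untreated cells under all alternatives run. For TNF 100 against untreated cells 4 members were called, and 3 to 5 under the other settings. For the other comparisons the number moved as follows. Without a pseudocount it was 1 for TNF 100 with insulin 500 against TNF 100 and 1 for TNF 100 at 4 h, and with a pseudocount of 50 it was 2 for the TNF effect across times. Without the filter it was 1 for TNF 100 with EGF 100 against TNF 100 and 1 for 16 h against 4 h under TNF 100. With the stricter filter it was 1 for TNF 5, for TNF 100 with insulin 500 against TNF 100, for TNF 100 with EGF 100 against EGF 100, and for TNF 100 at 4 h and 8 h, and 2 across times. Quantile normalization gave 1 for TNF 100 against TNF 5, for EGF 100 and for TNF 100 at 4 h and 8 h, and 5 for TNF 100 with EGF 100 against EGF 100. Median centring gave 1 for EGF 100, for TNF 100 with EGF 100 against TNF 100 and for TNF 100 at 4 h, and 2 at 16 h. Without an intensity trend TNF 100 with EGF 100 against TNF 100 had 1, and without the 8 h arrays of replicate 2 it had 0 and TNF 100 at 4 h had 1. With only the treatments compared it was 0 for TNF 100 with EGF 100 against TNF 100, 0 for 16 h against 4 h in untreated cells, 1 under TNF 100 and 0 across times. The replicate block within each time gave 3 for EGF 100 (KRT19, KRT20 and EZR), 1 for TNF 100 with insulin 500 against TNF 100 (VIL1), 2 for TNF 100 at 4 h, 1 at 8 h, 2 for 16 h against 4 h in untreated cells and 2 across times. The replicate block over all times gave 1, 1 and 1 for TNF 100 with insulin 500 against TNF 100 and TNF 100 at 4 h and 8 h, and 2 across times. Leaving out 1 array gave 1 to 2 members for TNF 5, 0 to 2 for TNF 100 with EGF 100 against TNF 100, 0 to 1 for TNF 100 with insulin 500 against TNF 100, 2 to 3 for TNF 100 with EGF 100 against EGF 100, 2 to 4 for TNF 100 with insulin 500 against insulin 500, 0 to 1 for TNF 100 at 8 h, 2 to 3 at 16 h, 0 to 1 for 16 h against 4 h in untreated cells, 1 to 2 under TNF 100, and 0 to 1 across times. The KRT20 mean in TNF 100 with insulin 500 against insulin 500 turned to 0.0794 with median centring and, leaving out 1 array, lay between −0.0698 and 0.0485. EZR, 16 h against 4 h under TNF 100, turned to 0.068 by the probe set 208623_s_at. The causes were not tested.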

Other observations

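Other genes of the listed groups changed over time without any added factor. In untreated cells at 16 h against 4 h, 5 of 20 adhesion genes were higher and 0 lower, where 11% of all genes were called, 556 higher and 337 lower. LGALS4, a galectin of intestinal epithelium, was at a log2 change of 1.15 ± 0.15 (adjusted p = 2.84e-06) and the tight junction protein CLDN7 at 0.96 ± 0.28 (adjusted p = 0.0448). The keratin KRT7 changed by 1.49 ± 0.33 (adjusted p = 0.00582) and the plakin PPL by 1.29 ± 0.22 (adjusted p = 1.52e-05). The list median of the adhesion genes was 0.33, against 0.01 for all genes.

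The TNF effect of some of these genes also differed between 16 h and 4 h. The difference was 1.14 ± 0.31 for DSP (adjusted p = 0.0197), −1.59 ± 0.26 for ABCG2 (adjusted p = 7.22e-04), −1.35 ± 0.35 for CFTR (adjusted p = 0.0258), −1.16 ± 0.24 for TSPAN8 (adjusted p = 0.00578) and −0.88 ± 0.21 for LGALS4 (adjusted p = 0.0359). With insulin present, TNF 100 plus insulin 500 against insulin 500 gave 1.45 ± 0.19 for KRT7 (adjusted p = 3.35e-07), 1.05 ± 0.29 for KRT23 (adjusted p = 0.0377) and 0.77 ± 0.16 for the carbonic anhydrase CA2 (adjusted p = 9.83e-04).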
